A study of Arabidopsis thaliana with 30 samples.

Results

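The Aux/IAA repressors and auxin response factors (ARFs) described here are 35 Arabidopsis thaliana genes, 25 Aux/IAA genes and 10 ARF genes, taken by locus from the 32833 genes of a table of read counts. They were given as a list of loci whose rule names no measured value, and 8 further Aux/IAA and ARF genes of the table are not among them. The counts came from RNA of root cells that had been sorted by fluorescence from GFP reporter lines, and the study asked how root cell types respond to phosphate starvation. There were 30 libraries, 3 for each of 10 groups: LPi and HPi in epidermis, cortex, pericycle, stele and lateral root cap.

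All seedlings were wild type in genotype and grew for 6 days at 22 °C on half-strength MS medium, in long days. LPi seedlings had 5 µM phosphate by the treatment description, although the sample entries describe the same medium as lacking phosphate, and HPi seedlings had high phosphate. Epidermis came from WER::GFP, cortex from J0571, pericycle from J0661, stele from SHR::GFP and lateral root cap from J3411, so that a cell type and its line cannot be told apart. Levels below are counts per 1000000 (CPM), scaled by the trimmed mean of M values. In such bulk samples fewer cells of a type and less RNA per cell cannot be told apart. The labels do not say whether the 3 replicates of a group came from separate cultures, so a p-value measures the spread between these libraries, which may be in part technical.

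Auxin acts in the nucleus through TIR1/AFB F-box receptors, Aux/IAA proteins and ARFs. Aux/IAA proteins bind ARFs and recruit TOPLESS co-repressors, and auxin lets the receptor grip a short degron in the Aux/IAA protein, which is then destroyed and frees the ARF. Most Aux/IAA genes are themselves ARF targets, and in roots the pathway sets gravitropism, meristem size, vascular patterning and the founding of lateral roots.

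RefSeq (TAIR10.1) held a protein for each of the 35 members, and 19 of the 25 Aux/IAA proteins carried the core of the degron, GWPP followed by V, I or L. The DNA that encodes it is shown for the 9 canonical members among the 12 with the smallest p in the test of differences between cell types, because the results turn on these genes. Capitals mark the 5 codons of the core, and each stretch lies within 1 coding exon.
IAA7, chr3:8195568-8195597, plus strand: caagtggtgGGATGGCCACCTGTGaggaac
IAA17, chr1:1136938-1136967, plus strand: caagttgtgGGATGGCCACCGGTGagatca
IAA1, chr4:8361436-8361465, plus strand: caaatcgttGGATGGCCTCCAGTGagatct
IAA4, chr5:17550740-17550769, plus strand: cagattgttGGATGGCCACCAGTTagatct
IAA13, chr2:14115233-14115262, minus strand: caagttgttGGATGGCCTCCTATAgggtca
IAA18, chr1:19306231-19306260, plus strand: ccagtggtgGGATGGCCTCCGGTTcgatcc
IAA19, chr3:5264307-5264336, plus strand: caggtggtgGGGTGGCCACCGGTTtgttct
IAA8, chr2:9637725-9637754, plus strand: caggttgttGGTTGGCCTCCAATCagatca
IAA9, chr5:26255104-26255133, plus strand: caaattgtcGGTTGGCCTCCAGTGagatcc
The 6 Aux/IAA genes without the core letters were IAA20, IAA30, IAA31, IAA32, IAA33 and IAA34, which are known as non-canonical.

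Among the ARFs, ARF10, ARF16 and ARF17 are known targets of the microRNA miR160. Its mature sequence is given with the seed, bases 2 to 8, in capitals, and below it are the best matching sites in the coding sequences. Lower case in a site marks a base that differs from the exact complement of the microRNA, so that a G:U pair is marked too.
ath-miR160a-5p: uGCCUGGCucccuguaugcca
ARF10, chr2:12115741-12115761, plus strand: aGGaATACAGGGAGCCAGGCA
ARF16, chr4:14704141-14704161, minus strand: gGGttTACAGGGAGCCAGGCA
ARF17, chr1:29274189-29274209, plus strand: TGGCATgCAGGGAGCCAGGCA
The sites had 2 such differences in ARF10, 3 in ARF16 and 1 in ARF17, against 8 or 9 at the best window of the other 7 ARFs. The 3 genes thus share nearly the same site. Their levels are given below, and any part of miR160 in them was not tested.

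Libraries held 427064 to 122076663 reads in genes, and stele LPi replicate 1, stele HPi replicate 1 and pericycle LPi replicate 3 were the shallowest. Epidermis LPi replicate 3 and epidermis HPi replicate 3, which carry different phosphate labels, were closer to each other than any 2 libraries of 1 group, with an SD of 0.107 for their log2 CPM differences over genes at a mean log2 CPM of 5 or more, against 0.242 to 1.77 in all other pairs within a cell type. Whether they share material was not tested. Without both, the members called against the other 4 cell types numbered 11 in epidermis (12 with all libraries), 14 in cortex (17), 15 in pericycle (15), 19 in stele (20) and 13 in lateral root cap (14). The shares of all genes called in that fit are not given here, so whether all genes moved alike is not shown. Marker lists followed the labels in part. Summed levels of 9 endodermis markers reached 4312 to 13515 CPM in the cortex libraries, where 4 cortex markers summed to 28.7 to 44.0 CPM, so the sort labelled cortex held endodermis transcripts in quantity. Summed levels of 5 root cap markers were 603 to 1780 CPM in lateral root cap and 779 to 1215 CPM in epidermis. The 7 xylem markers reached 1946 to 7451 CPM in stele and at most 154 CPM elsewhere, whereas 2 general stele markers summed to 28.2 to 81.0 CPM in stele and 85.2 to 121 CPM in epidermis. The 4 phloem markers were at 80.3 to 327 CPM in pericycle, 34.9 to 144 CPM in stele and at most 35.2 CPM in the other sorts. The 3 procambium markers were at 36.9 to 83.4 CPM in pericycle, 48.2 to 151 CPM in stele and at most 10.5 CPM in the other sorts. The 2 quiescent centre markers were at 10.6 to 41.4 CPM in cortex and at most 7.59 CPM elsewhere. The 4 pericycle markers were not highest in the pericycle sort, with 284 to 871 CPM there and 834 to 1656 CPM in epidermis.

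Most members differed between cell types. Of the 34 members with enough reads to be tested, 26 differed between the 5 cell types (edgeR quasi-likelihood test, adjusted p under 0.05), against 59.8% of the 24866 genes tested. These were 19 of 19 canonical Aux/IAA genes, 2 of the 5 tested non-canonical ones and 5 of 10 ARFs. IAA34 (AT1G15050) did not pass the filter, with 93 reads over the 30 libraries and 0 reads in 18 of them. The smallest adjusted p belonged to IAA7, at 1.27e-10, and IAA13, at 4.57e-10.

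**Figure D1:**
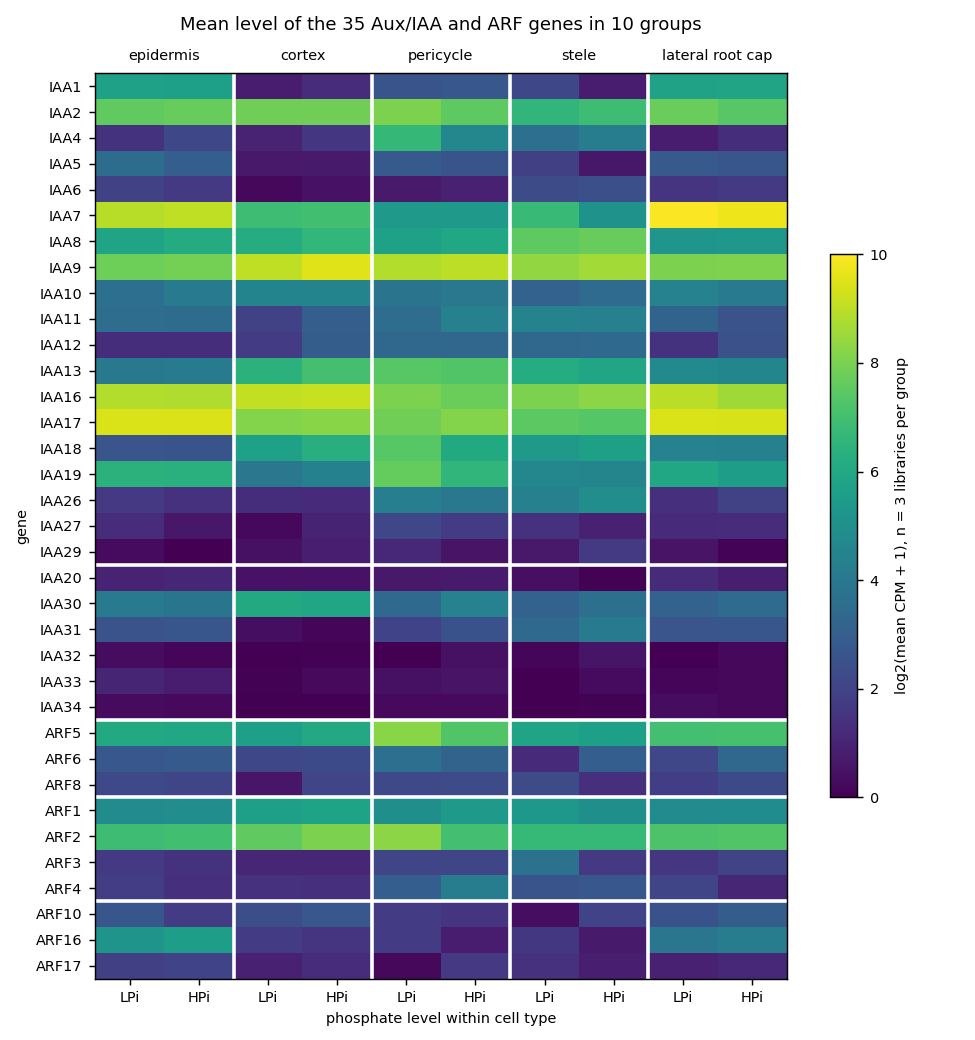
Mean level of each of the 35 members in the 10 groups, LPi left of HPi within each cell type, as log2(CPM + 1) over 3 libraries. IAA7 and IAA17 are brightest in lateral root cap and epidermis, and IAA9 and IAA16 are high in all groups.

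Each cell type was then set against the mean of the other 4. In epidermis 8 members were higher and 4 lower, against 18.8% and 13.0% of all genes tested. In cortex 7 were higher and 10 lower, against 13.0% and 8.46%. In pericycle 11 were higher and 4 lower, against 22.1% and 13.9%. In stele 8 were higher and 12 lower, against 17.8% and 11.3%, and in lateral root cap 7 were higher and 7 lower, against 20.4% and 20.2%. Lower calls in cortex and in stele thus made up a larger share of the 34 members than of all genes, with no test of that difference. Of the 78 called differences, which lay in 28 members, 54 were kept in each of 30 fits that left out 1 library, and those that were not are given as such where they are described.

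Of the members higher in the outer sorts, lateral root cap and epidermis, IAA7, IAA17 and IAA1 had the smallest p in both sorts. IAA7 (AT3G23050), known as AXR2 from a dominant mutant with agravitropic roots, had 988, 901 and 1093 CPM in lateral root cap LPi libraries and 727, 631 and 1229 CPM in HPi ones. Epidermis had 511, 356 and 575 CPM at LPi and 495, 437 and 651 CPM at HPi. All 12 of these libraries were above the 12 cortex and pericycle libraries, where cortex held 104 to 142 CPM and pericycle 23.8 to 71.6 CPM. Stele held 28.1 to 43.7 CPM in 5 libraries and 262 CPM in LPi replicate 1, the shallowest library of all. The log2 difference from the other 4 cell types was 3.07 ± 0.25 (SE, here and below) in lateral root cap, 1.97 ± 0.26 in epidermis, -2.57 ± 0.35 in pericycle and -1.90 ± 0.34 in stele, with adjusted p of 4.02e-10, 8.70e-07, 1.84e-06 and 8.18e-05.

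IAA17 (AT1G04250), or AXR3, whose stabilised form blocks root gravitropism and root hair growth, was likewise higher in both outer sorts, by smaller differences. Lateral root cap libraries had 789, 601 and 670 CPM at LPi and 699, 523 and 804 CPM at HPi. Epidermis had 622, 521 and 901 CPM at LPi, against 658, 527 and 958 CPM at HPi. The inner sorts were lower, at 197 to 355 CPM in cortex, 162 to 319 CPM in pericycle and 156 to 213 CPM in stele, and did not overlap with the outer sorts. The log2 difference was 1.16 ± 0.15 in lateral root cap and 1.20 ± 0.15 in epidermis, against -0.63 ± 0.17 in pericycle and -1.34 ± 0.18 in stele, all 4 past the threshold. IAA7 and IAA17 proteins share 69.0% of residues over the shorter one. Of the pairs of members that are each other's closest relative, this one had calls in the same direction in the most cell types, 4. More distant pairs were not counted, and some of them may match in as many.

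IAA1 (AT4G14560), an early auxin-induced gene also known as AXR5, was far higher in the outer sorts than in the inner ones. It had 48.1, 53.0 and 57.8 CPM in lateral root cap at LPi and 33.4, 28.0 and 107 CPM at HPi. Epidermis had 62.8, 28.8 and 62.2 CPM at LPi and 47.5, 33.4 and 67.3 CPM at HPi. The other 3 cell types stayed below all of these libraries, at 0.283 to 2.16 CPM in cortex, 1.10 to 10.8 CPM in pericycle and 0.178 to 9.96 CPM in stele, with the 9.96 CPM again in stele LPi replicate 1. The log2 difference of IAA1 was 3.96 ± 0.42 in lateral root cap, 3.82 ± 0.42 in epidermis, -3.25 ± 0.61 in cortex and -4.07 ± 0.76 in stele.

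IAA2 (AT3G23030), the closest relative of IAA1 with 78.6% identical residues, was spread far more evenly. Its mean was 107 ± 18.5 CPM in stele and 188 to 227 CPM in the other 4 cell types (SD, n = 6), and only stele was called, with a log2 difference of -0.96 ± 0.20. IAA2 lies 12511 bases from IAA7 on chromosome 3, and the neighbours had unlike profiles. IAA5 (AT1G15580) sided with IAA1, with a median of 7.80 CPM in epidermis, 5.11 CPM in lateral root cap, 5.42 CPM in pericycle, 0.433 CPM in cortex and 0.676 CPM in stele. IAA5 was called higher in the first 3 and lower in the last 2, and the pericycle call held in 14 of 30 fits that each left out 1 library, with a log2 difference of 1.08 to 1.44 over them.

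Of the 8 members higher in epidermis and the 7 higher in lateral root cap, 6 were the same genes: IAA1, IAA5, IAA7, IAA17, IAA31 and ARF16. IAA9, IAA13 and IAA18 were lower in both. The comparisons share libraries, so the overlap is a count and no test. The 6 epidermis markers summed to 149 to 310 CPM in epidermis and 198 to 378 CPM in lateral root cap, and the root cap markers were as high in one sort as in the other, as given above. The part of shared cells in these calls was not tested.

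**Figure D2:**
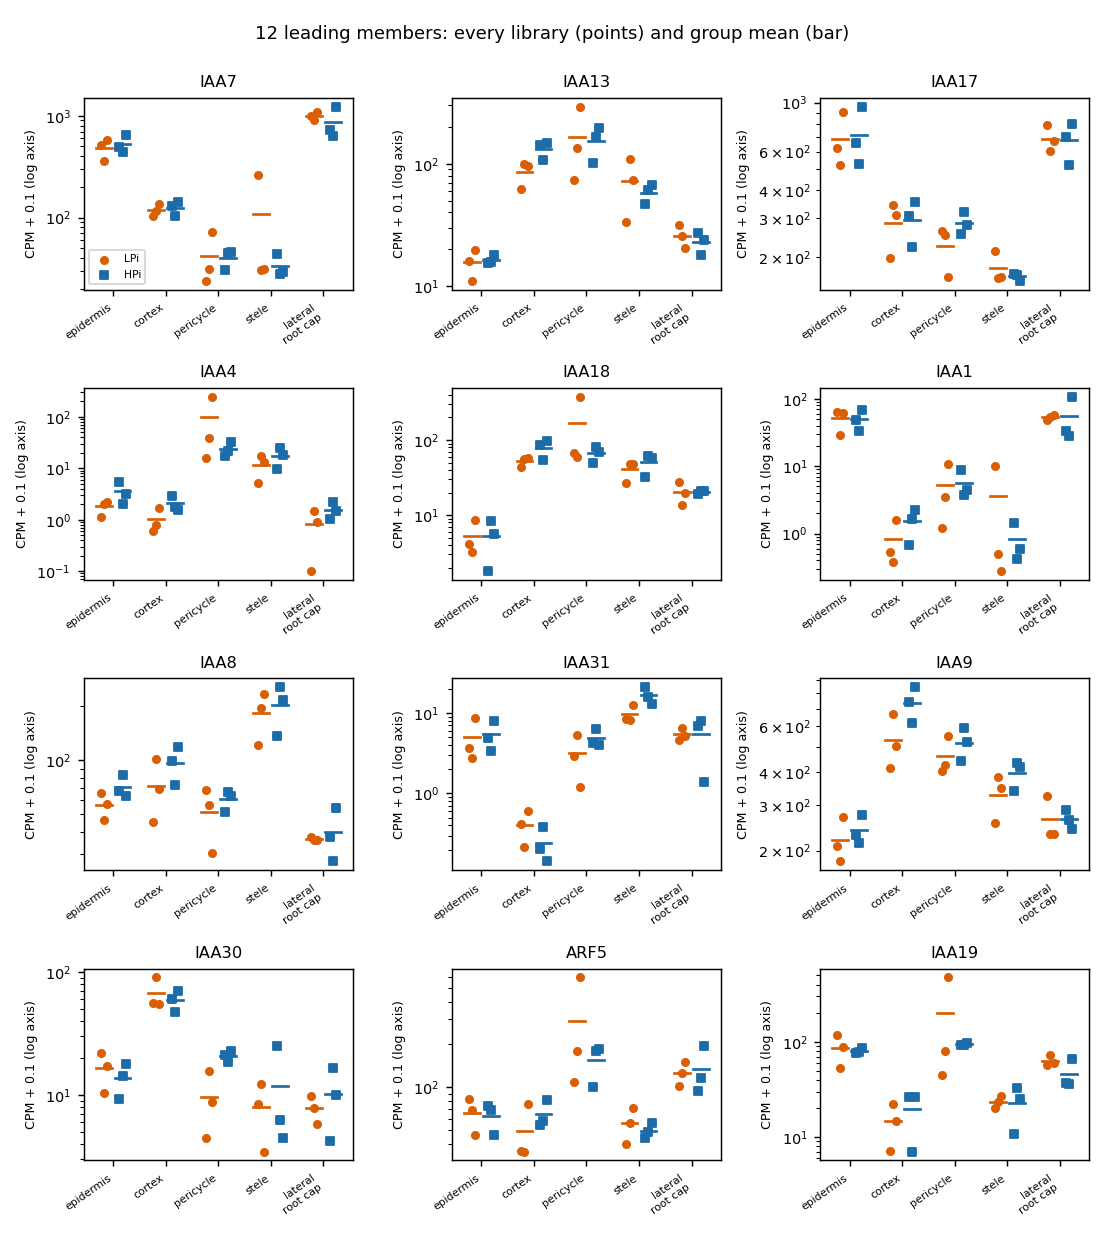
CPM + 0.1 of the 12 members with the smallest joint p in each of the 30 libraries on a log axis, LPi left of HPi in each cell type, 1 point per library and a bar for the group mean. IAA31 is lower in all 6 cortex libraries than in the other 24, and IAA4, IAA18 and IAA19 each have 1 pericycle LPi library far above the rest.

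Among the Aux/IAA genes higher in pericycle, IAA4, IAA13, IAA18 and IAA19 had the smallest p, although the log2 difference of IAA26, at 2.30, was above those of the last 3. The phloem markers also reached their highest sum in that sort, and the procambium markers were higher there than in the sorts other than stele. The part of such cells in these calls was not tested. IAA4 (AT5G43700), an early auxin-induced gene, had 16.0, 39.1 and 245 CPM in pericycle at LPi and 17.3, 21.6 and 31.7 CPM at HPi. Stele had 4.98, 17.1 and 13.0 CPM at LPi, against 9.41, 24.3 and 18.2 CPM at HPi. IAA4 was lower elsewhere, at 1.05 to 5.41 CPM in epidermis, 0.503 to 2.77 CPM in cortex and 0 to 2.10 CPM in lateral root cap. The log2 difference was 4.20 ± 0.38 in pericycle and 2.08 ± 0.40 in stele, against -2.24 ± 0.53 in cortex and -2.85 ± 0.57 in lateral root cap.

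IAA13 (AT2G33310) and IAA12 (AT1G04550) form a pair with 76.2% identical residues, and IAA12, or BODENLOS, is the repressor that holds ARF5 in check when the embryonic root is founded. IAA13 had 73.5, 134 and 293 CPM in pericycle at LPi and 102, 165 and 197 CPM at HPi. Cortex had 61.6, 100 and 95.5 CPM at LPi, against 143, 108 and 148 CPM at HPi. Epidermis, at 10.9 to 19.6 CPM, and lateral root cap, at 17.9 to 31.3 CPM, were below all libraries of the other 3 sorts, and stele lay at 33.2 to 108 CPM. IAA13 differed by 1.98 ± 0.20 in pericycle, 1.25 ± 0.21 in cortex, -2.18 ± 0.26 in epidermis and -1.42 ± 0.25 in lateral root cap. Its locus overlaps other annotated genes over 1176 bases, as do those of IAA5, IAA9, IAA10, IAA11, IAA27, IAA32, IAA34, ARF1 and ARF5 over other lengths, and whether reads were counted by strand is not known. IAA12 averaged 9.32 ± 1.84 CPM in stele, 9.18 ± 2.82 CPM in pericycle and 1.45 ± 1.17 CPM in epidermis, and was called higher in stele (1.43 ± 0.34) and pericycle (1.404 ± 0.338) and lower in epidermis (-1.97 ± 0.43).

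IAA18 (AT1G51950), known from the crane mutants with few lateral roots, was lower in the 6 epidermis libraries than in the 24 others, a separation found for 0.245% of genes. It had 4.01, 3.17 and 8.44 CPM in epidermis at LPi and 1.69, 8.20 and 5.42 CPM at HPi. Pericycle had 67.7, 58.8 and 376 CPM at LPi, against 48.8, 81.9 and 70.3 CPM at HPi. Cortex held 43.7 to 96.8 CPM, stele 26.6 to 62.0 CPM and lateral root cap 13.6 to 27.9 CPM, so that IAA18 was high in the inner sorts and lowest at the surface. The log2 difference was -3.27 ± 0.38 in epidermis, 2.15 ± 0.26 in pericycle and 1.26 ± 0.27 in cortex, while the -0.81 ± 0.31 of lateral root cap was called in 17 of 30 fits that each left out 1 library, at -0.88 to -0.56.

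IAA26 (AT3G16500), also called PAP1 and the closest relative of IAA18 at 68.5% identity, was likewise higher in pericycle, by 2.30 ± 0.60, and in stele, by 2.99 ± 0.58. In cortex the pair went apart: IAA26 was lower by a log2 difference of -2.29 ± 0.81 and IAA18 higher. The cortex call of IAA26 was weak, since it held in only 9 of 30 fits that each left out 1 library, at -4.39 to -1.89. IAA26 averaged 24.3 ± 13.6 CPM in stele, 16.8 ± 2.79 CPM in pericycle and 1.43 to 2.26 CPM in the other 3 sorts.

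IAA19 (AT3G15540), or MSG2, which acts in tropic bending of the hypocotyl, was high in pericycle and in the outer sorts. Pericycle had 44.8, 81.0 and 476 CPM at LPi and 92.4, 92.8 and 97.9 CPM at HPi. Epidermis had 117, 52.6 and 88.2 CPM at LPi, against 75.8, 78.6 and 86.3 CPM at HPi. The 476 CPM of pericycle LPi replicate 3 set that library apart, and the medians were 92.6 CPM in pericycle and 82.4 CPM in epidermis. Lateral root cap held 36.0 to 73.0 CPM, above the 6.95 to 26.4 CPM of cortex and the 10.8 to 32.4 CPM of stele. IAA19 was called higher in pericycle (1.90 ± 0.29) and epidermis (0.997 ± 0.304) and lower in cortex (-1.85 ± 0.37) and stele (-1.28 ± 0.36). IAA6 (AT1G52830), or SHY1, its closest relative at 64.0% identity, was lower in cortex as well (-2.97 ± 1.04) but higher in stele (2.11 ± 0.75), where it averaged 4.19 ± 2.60 CPM. The cortex call of IAA6 held in 23 of 30 fits that each left out 1 library, at -3.70 to -2.71, and the stele call in 27, at 1.87 to 2.39.

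**Figure D3:**
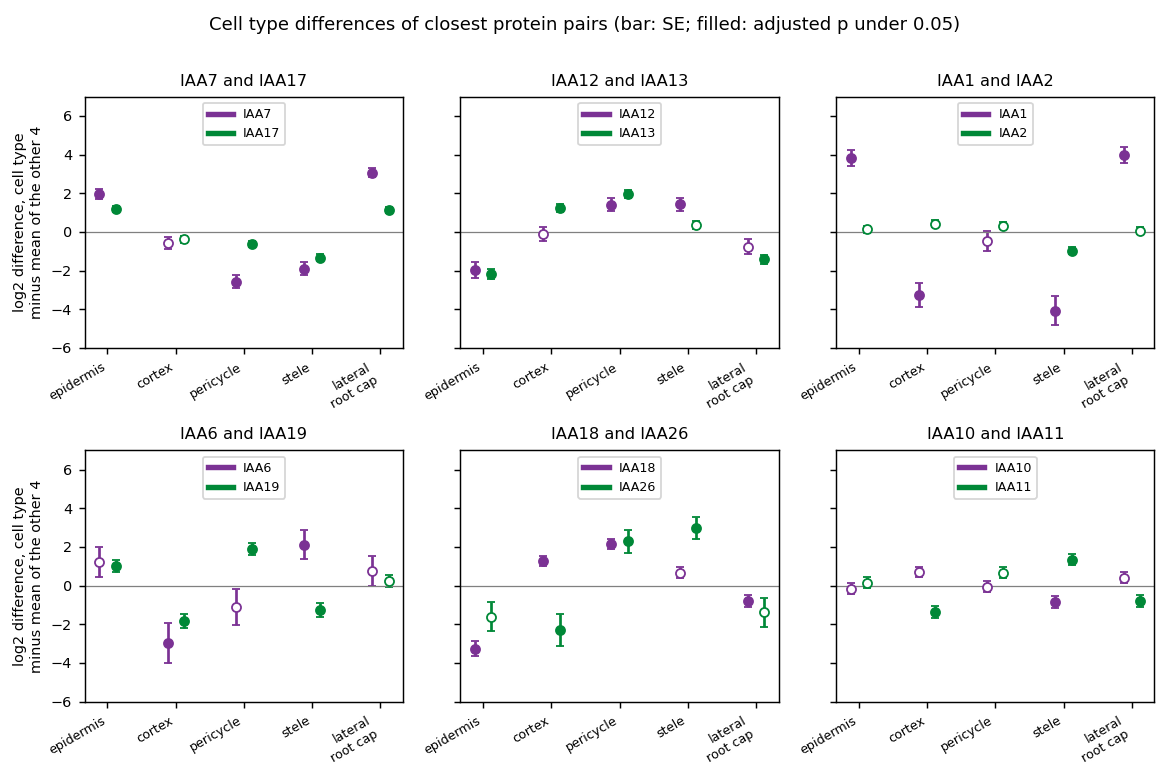
Log2 difference of each cell type from the mean of the other 4, with bars for its SE and filled points for adjusted p under 0.05, for 6 pairs of close relatives. IAA7 and IAA17 are filled on the same side in 4 cell types, IAA2 is filled only in stele, at -0.96, where IAA1 is at -4.07, and IAA6 and IAA19 part in stele.

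IAA8 and IAA9 are canonical members with long amino-terminal regions. IAA8 (AT2G22670) was higher in all 6 stele libraries than in the 24 others, as were 1.05% of genes. It had 121, 196 and 235 CPM in stele at LPi and 136, 255 and 218 CPM at HPi. The next highest was cortex, at 45.2 to 118 CPM, and the lowest was lateral root cap, at 27.3 to 54.4 CPM, with epidermis at 46.7 to 82.3 CPM and pericycle at 30.4 to 68.2 CPM between them. The log2 difference of IAA8 was 1.74 ± 0.17 in stele and -1.20 ± 0.21 in lateral root cap.

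IAA9 (AT5G65670), known to act in leaf and vascular development, stayed within 182 to 846 CPM over the 30 libraries. Cortex had 413, 667 and 505 CPM at LPi and 739, 615 and 846 CPM at HPi. Pericycle had 405, 426 and 549 CPM at LPi, against 440, 590 and 522 CPM at HPi, and stele 254, 382 and 347 CPM at LPi, against 337, 432 and 417 CPM at HPi. Epidermis, at 182 to 273 CPM, and lateral root cap, at 232 to 325 CPM, did not overlap with cortex or pericycle. The log2 difference was 0.96 ± 0.14 in cortex and 0.51 ± 0.14 in pericycle, against -0.85 ± 0.15 in epidermis and -0.60 ± 0.15 in lateral root cap.

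The remaining canonical genes had smaller or fewer differences. IAA16 (AT3G04730) was abundant in all sorts, with a mean of 235 CPM in pericycle to 555 CPM in cortex, and was called higher in cortex (0.71 ± 0.18) and lower in pericycle (-0.85 ± 0.20). IAA11 (AT4G28640) was higher in stele (1.34 ± 0.27) and lower in cortex (-1.37 ± 0.33), and its lower call in lateral root cap (-0.79 ± 0.31) held in 8 of 30 fits that each left out 1 library, at -0.87 to -0.64. IAA10 (AT1G04100), its closest relative at 48.3% identity, went the other way in stele (-0.86 ± 0.30), where all of the 6 fits without 1 of the stele libraries lost the call, at -0.96 to -0.80 over the 30. IAA27 (AT4G29080), or PAP2, averaged 2.89 ± 1.09 CPM in pericycle and 0.557 ± 0.681 CPM in cortex, the cortex call holding in 14 of 30 such fits, at -2.46 to -1.76. IAA29 (AT4G32280), known as a target of light-regulated PIF factors, was barely read, with 604 reads in all and a highest mean of 1.44 CPM in stele, where it was called higher by 2.20 ± 0.77, in 25 of 30 such fits.

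The non-canonical Aux/IAA genes lack the core the receptor binds and are known to be longer lived. IAA30 (AT3G62100) had 56.1, 90.2 and 54.4 CPM in cortex at LPi and 60.1, 47.0 and 69.9 CPM at HPi. All 6 were above the 24 other libraries, as in 1.78% of genes, and the highest of those 24, at 24.9 CPM, was stele HPi replicate 1. That library also had 1717 CPM of endodermis markers, against 6.09 to 364 CPM in the other 5 stele libraries, and the part of those transcripts in its IAA30 level was not tested. The other sorts held 9.13 to 22.0 CPM in epidermis, 4.39 to 22.8 CPM in pericycle, 3.37 to 24.9 CPM in stele and 4.12 to 16.5 CPM in lateral root cap. The log2 difference of IAA30 was 2.45 ± 0.27 in cortex, -1.005 ± 0.349 in stele and -1.07 ± 0.34 in lateral root cap. The stele call of IAA30 held in 25 of 30 fits that each left out 1 library, at -1.51 to -0.78, and the lateral root cap call in 28, lost without HPi replicate 1 or LPi replicate 3 of that sort, at -1.26 to -0.84.

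IAA31 (AT3G17600) ran opposite to IAA30 between cortex and stele. It had 0.314, 0.113 and 0.505 CPM in cortex at LPi and 0.105, 0.284 and 0.0433 CPM at HPi. These 6 libraries were below the 24 others, as in 0.277% of genes. Stele had 8.30, 8.13 and 12.4 CPM at LPi, against 20.8, 15.5 and 13.0 CPM at HPi. Epidermis held 2.62 to 8.44 CPM, pericycle 1.08 to 6.17 CPM and lateral root cap 1.29 to 7.82 CPM, between the 2 extremes. The log2 difference was -4.99 ± 0.56 in cortex and 2.57 ± 0.34 in stele. Smaller higher calls of IAA31 in epidermis (0.93 ± 0.36) and lateral root cap (0.9995 ± 0.3626) held in 18 and 27 of 30 fits that each left out 1 library, at 0.71 to 1.20 and 0.84 to 1.29. Without the 2 closely matching epidermis libraries the epidermis difference of IAA31 was 0.52 and its call was lost.

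The other 4 non-canonical genes were close to the limit of detection. IAA20 (AT2G46990), 84.9% identical to IAA30, reached a mean of only 1.05 CPM in lateral root cap and 1.03 CPM in epidermis and was called in no cell type. IAA33 (AT5G57420), with 145 reads in all, was higher in epidermis by 3.36 ± 1.08, at 0.887 ± 0.645 CPM, and the call was lost without epidermis HPi replicate 1, at 2.90. IAA32 (AT2G01200) had 125 reads and 0 in 17 libraries, and IAA34 was at 0 in all 6 cortex libraries and at most at 0.777 CPM. At this depth no difference between cell types was detectable for IAA32, whose locus overlaps another gene over 826 bases.

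Of the ARFs with a glutamine-rich middle region, which are known as activators, ARF5 was the 1 that differed between cell types. ARF5 (AT1G19850), or MONOPTEROS, needed to form the embryonic root and vasculature, had 108, 181 and 592 CPM in pericycle at LPi and 99.9, 179 and 187 CPM at HPi. Lateral root cap came next, with 103, 125 and 151 CPM at LPi and 94.3, 117 and 194 CPM at HPi. Epidermis held 46.4 to 82.4 CPM, cortex 35.3 to 81.5 CPM and stele 39.9 to 71.3 CPM, all below both. The log2 difference was 1.59 ± 0.22 in pericycle, 0.71 ± 0.24 in lateral root cap, -0.81 ± 0.26 in cortex and -0.92 ± 0.27 in stele. The lateral root cap call of ARF5 was lost without HPi replicate 3 of that sort, at 0.59, and the cortex call without cortex HPi replicate 2, LPi replicate 1 or LPi replicate 2, at -1.08 to -0.72 over the 30 fits. ARF6 (AT1G30330) and ARF8 (AT5G37020), which act together in flower maturation and are known targets of miR167, were low, with means of 3.61 to 9.83 CPM and 1.89 to 3.84 CPM over the 5 cell types, and neither was called anywhere.

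The ARFs of the ARF1 to ARF4 group, mostly known as repressors, showed moderate differences. ARF2 (AT5G62000), which limits growth and hastens ageing of leaves, averaged 224 ± 64.5 CPM in cortex and 103 ± 17.2 CPM in stele, with calls of 0.67 ± 0.23 and -0.70 ± 0.25 that held in 26 and 23 of 30 fits that each left out 1 library, at 0.55 to 0.77 and -0.76 to -0.58. ARF1 (AT1G59750) was higher in cortex by 0.73 ± 0.17, at 52.2 ± 7.75 CPM, against 27.9 to 35.5 CPM in the other 4 means. ARF4 (AT5G60450), which acts with ARF3 in leaf polarity and is restrained by trans-acting small RNAs, was higher in pericycle by 2.21 ± 0.47, at 12.1 ± 7.43 CPM. ARF3 (AT2G33860), or ETTIN, ranged in mean level over 1.12 to 7.38 CPM and was called nowhere, and its stele mean held 1 library at 31.6 CPM.

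Of the miR160 targets, ARF16 alone differed between the cell types by the joint test. ARF16 (AT4G30080), which acts with ARF10 in root cap cell differentiation, had a lowest, median and highest level of 23.9, 40.6 and 66.0 CPM in epidermis and 7.53, 15.2 and 26.3 CPM in lateral root cap. The other 18 libraries stayed at or below 6.04 CPM, with medians of 1.397 CPM in cortex, 1.01 CPM in pericycle and 0.840 CPM in stele. The log2 difference of ARF16 from the other 4 cell types was 4.10 ± 0.61 in epidermis and 2.42 ± 0.63 in lateral root cap, and those 2 sorts were not tested against each other. ARF10 (AT2G28350), 56.3% identical to ARF16, had means of 1.67 to 5.70 CPM, and its lower call in stele (-1.87 ± 0.71) held in 8 of 30 fits that each left out 1 library, at -4.99 to -1.46. ARF17 (AT1G77850), which acts in adventitious rooting, averaged 2.90 ± 0.715 CPM in epidermis and 1.03 to 1.22 CPM elsewhere and was called in no cell type.

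Levels of different genes were compared per kilobase of exon. IAA17 led in epidermis with 530 ± 143 CPM per kb (SD, n = 6), or 33.3% of the summed level of the 35 members, and in lateral root cap with 517 CPM per kb, or 29.0%. IAA7 followed in lateral root cap with 486 CPM per kb, or 27.3%. IAA9 led in the 3 inner sorts, with 295 ± 73.3 CPM per kb in cortex, 228 CPM per kb in pericycle and 169 CPM per kb in stele, and with 21.8%, 17.6% and 19.3% of the sum. Its lead in cortex was within the SD, since IAA16 had 274 ± 69.2 CPM per kb there, or 20.2%. Next after IAA9 were IAA17 in pericycle, at 194 CPM per kb, and IAA16 in stele, at 139 CPM per kb. Summed Aux/IAA levels exceeded summed ARF levels in all 10 groups, with group means of 791 to 1777 CPM per kb for Aux/IAA and 58.3 to 181 CPM per kb for ARF genes. The 181 CPM per kb is that of pericycle at LPi, where replicate 3 had 359 CPM per kb and the mean without it was 92.2 CPM per kb.

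The cell type differences were also taken from the groups of each phosphate level alone, within the same fit of all 30 libraries. The joint test called 20 members at LPi and 20 at HPi, 18 of them at both, against 39.0% and 39.1% of all genes tested. The cell type with the highest mean was the same at LPi and HPi for 21 of 34 members, or 61.8%, against 54.4% of all genes tested. In epidermis 9 members were called at LPi and 9 at HPi, against 19.5% and 17.8% of all genes, and 8 were called at both, among them IAA18 and ARF16. In cortex 9 were called at LPi and 9 at HPi, against 10.3% and 11.4%, and 4 at both, IAA1, IAA9, IAA30 and IAA31. The members called at both numbered 6 in pericycle, 6 in stele and 6 in lateral root cap, and their counts at each level are given at the end. The share of all genes called at both levels was not taken. The counts at both thus have no share of all genes to be set against.

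Low phosphate changed no member past the threshold in any cell type. With adjusted p under 0.05, edgeR called 0 of 34 members in epidermis, cortex, pericycle, stele, lateral root cap, their mean and the test of a different response between cell types, against 0%, 0%, 0.00402%, 0%, 0.0241%, 0.00402% and 0% of all genes tested. At an unadjusted p under 0.05 the members numbered 0 in epidermis (0.977% of all genes), 3 in cortex (4.91%), 5 in pericycle (12.3%), 2 in stele (3.05%), 1 in lateral root cap (6.75%), 1 in the mean (6.88%) and 1 in the test of different responses (5.36%). DESeq2 called 3 members in pericycle, against 6.09% of the genes it tested there, and 0 elsewhere, and limma called 0. A miss of the threshold with 3 libraries a group does not show that LPi and HPi levels were alike.

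**Figure D4:**
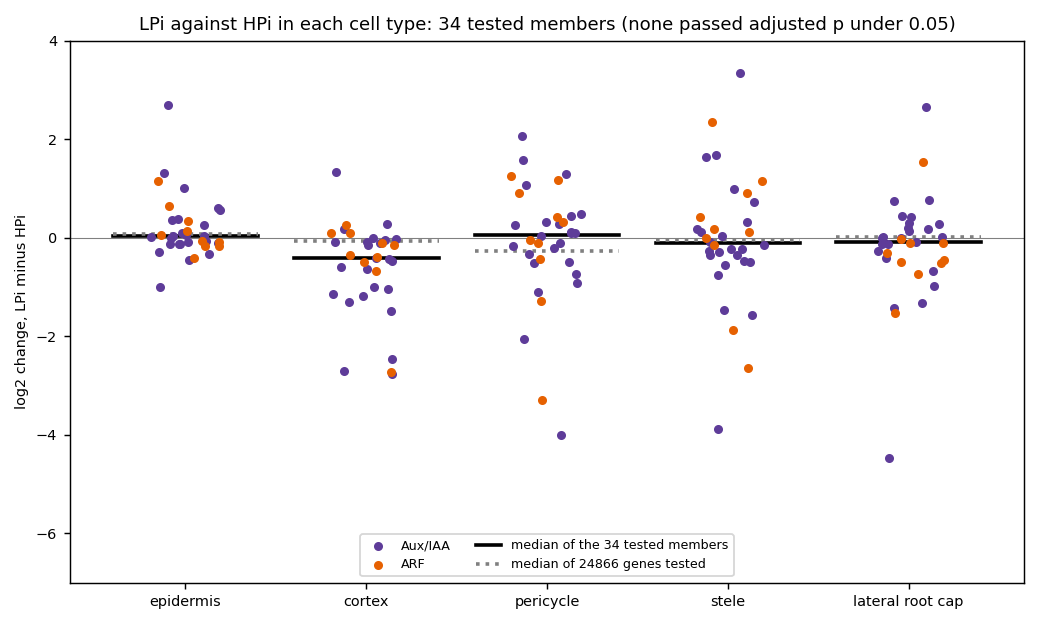
Log2 change, LPi minus HPi, of the 34 tested members in each of the 5 cell types, 1 point per gene, with solid bars for the members' median and dotted bars for that of all genes tested. In cortex 28 of 34 members lie below 0, and in the other cell types the members fall on both sides.

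In cortex 28 of 34 members were lower at LPi, and their median log2 change was -0.40, against -0.06 over all genes tested. With RLE size factors 21 of 34 were lower, at a median of -0.31 for the members and 0.02 for all genes. Members without overlap between LPi and HPi libraries were IAA12, IAA13 and IAA27, which were lower at LPi, against 8.64% of genes either way. IAA11 had 1.07, 3.39 and 4.44 CPM at LPi, against 7.17, 3.83 and 10.8 CPM at HPi, a log2 change of -1.31 ± 0.54 (adjusted p = 1 by edgeR). IAA27 had 0.189, 0.0565 and 0.202 CPM at LPi, against 1.82, 0.851 and 0.216 CPM at HPi (-2.70 ± 1.17, adjusted p = 1). Cortex HPi replicate 3 was the highest of the 6 cortex libraries for 17 of the 34 members, or 50%, against 19.6% of all genes. Without that library 21 members were lower and 12 higher, at a median of -0.17, against 0.02 over all genes, and its part in the shift was not tested further.

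In pericycle the members with the smallest p were higher at LPi through 1 library. The 34 members had a median log2 change of 0.06 with 18 higher, against -0.26 over all genes tested, and 0.40 with 23 higher, against 0.02, with RLE size factors. The direction turned with limma, at -0.26 with 24 lower, against -0.31 over all genes, and with the replicate block, at -0.08 with 18 lower, against -0.35. ARF2 had 106, 146 and 668 CPM at LPi and 92.5, 150 and 140 CPM at HPi, a log2 change of 1.26 ± 0.43 (adjusted p = 0.179 by edgeR). Without pericycle LPi replicate 3, which had 1863306 reads in genes, the change of ARF2 was 0.13. Without LPi replicate 1 or 2 it passed the threshold, with adjusted p of 0.0159 and 0.0357, as it did with RLE size factors or DESeq2, both at a log2 change of 1.73. IAA4, whose values are given above, changed by 2.06 ± 0.80 (adjusted p = 0.255) and by 0.36 without LPi replicate 3. IAA18 likewise changed by 1.30 ± 0.54 with that library and 0.07 without it, and ARF5 by 0.91 ± 0.44 and 0.05.

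Pericycle LPi replicate 3 was the highest of the 6 pericycle libraries for 13 of the 34 members, or 38.2%, against 24.6% of all genes. It also held 78.1 CPM of root cap markers, the most of the 6, whose range was 0.0875 to 78.1 CPM, and the part of other cells or of depth in its levels was not tested. IAA11, IAA30 and ARF17 were lower at LPi without overlap with the HPi libraries, against 14.0% of genes either way. ARF17 had 0.0333, 0.446 and 0 CPM at LPi, against 3.37, 1.39 and 1.63 CPM at HPi (-3.28 ± 1.42, adjusted p = 0.327).

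**Figure D5:**
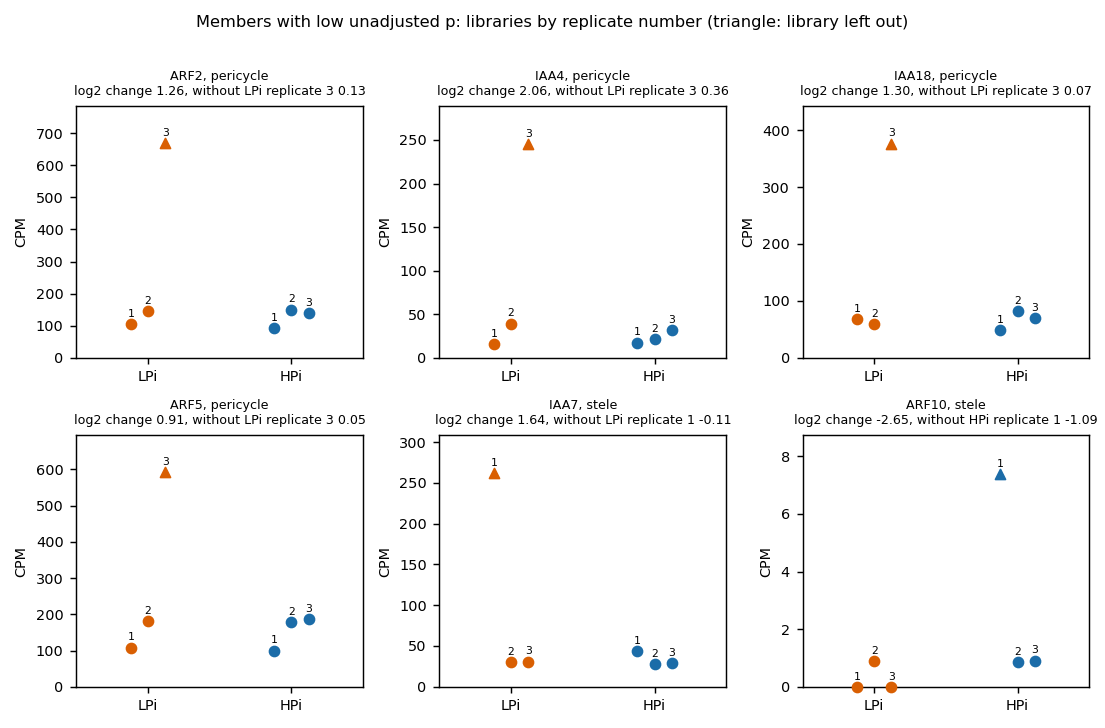
CPM in each of 3 LPi and 3 HPi libraries, numbered by replicate, for 6 members with a low unadjusted p, with a triangle for the library whose removal is given in each title. ARF2, IAA4, IAA18 and ARF5 are highest in pericycle LPi replicate 3, IAA7 in stele LPi replicate 1 and ARF10 in stele HPi replicate 1.

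In stele IAA7 and ARF10 had the smallest p. IAA7 had 262, 30.3 and 30.9 CPM at LPi and 43.7, 28.1 and 29.3 CPM at HPi, a log2 change of 1.64 ± 0.54 (adjusted p = 1) that became -0.11 without LPi replicate 1. That library had 427064 reads in genes, 327 CPM of root cap markers, against 106 to 309 CPM in the other 5 stele libraries, and 86.4 CPM of epidermis markers, against 29.0 to 40.8 CPM. Stele LPi replicate 3, with the 309 CPM of root cap markers, had IAA7 at 30.9 CPM. The part of other cells or of depth in the IAA7 level of LPi replicate 1 was not tested. ARF10 had 0, 0.889 and 0 CPM at LPi, against 7.39, 0.847 and 0.906 CPM at HPi (-2.65 ± 1.23, adjusted p = 1), and -1.09 without HPi replicate 1. IAA10, IAA29 and IAA31 were lower at LPi without overlap with the HPi libraries in stele, against 8.70% of genes either way.

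In lateral root cap IAA12 was lower at LPi in all 3 libraries, with 1.08, 2.14 and 1.98 CPM, against 4.12, 5.67 and 3.92 CPM at HPi (-1.42 ± 0.68, adjusted p = 0.731 by edgeR). IAA12 was also lower without overlap in cortex, with 2.77, 1.87 and 2.52 CPM at LPi, against 7.98, 5.39 and 6.71 CPM at HPi. It was the only member with an unadjusted p under 0.05 in more than 1 cell type, and its mean log2 change over the 5 cell types was -0.57 ± 0.30 (adjusted p = 0.753). ARF6 had 2.89, 6.99 and 0.116 CPM at LPi, against 5.72, 14.7 and 7.83 CPM at HPi (-1.53, adjusted p = 0.932), so that the groups overlapped. Of the 10 ARFs, 9 were lower at LPi in lateral root cap, where their median was -0.37, against 0.01 over all genes tested, while 12 of the 24 Aux/IAA genes were higher and 12 lower. The ARF median turned to 0.04 without lateral root cap HPi replicate 3, with 5 higher and 5 lower, and to 0.09 with limma. The median of all 34 members, -0.09, likewise turned to 0.20 without that library, 0.20 with limma and 0.10 with the replicate block. The members without overlap in lateral root cap were IAA12 and IAA16, the second higher at LPi, against 7.80% of genes.

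In epidermis no member had an unadjusted p under 0.05, and no member was without overlap between LPi and HPi libraries, against 6.70% of genes. Epidermis LPi replicate 3 and HPi replicate 3 are the 2 closely matching libraries, and without them the members' median log2 change was -0.06, with 16 higher and 19 lower, against 0.08 over all genes, and still no member had an unadjusted p under 0.05. IAA29 had 0.263, 0.437 and 0 CPM at LPi, against 0, 0 and 0.0646 CPM at HPi (adjusted p = 1). IAA4 had 1.05, 1.96 and 2.16 CPM at LPi, against 5.41, 1.95 and 3.13 CPM at HPi (-1.01, adjusted p = 1). Over the 5 cell types, the test of a different response had its smallest p among the members for IAA4 (adjusted p = 0.897 by edgeR), with its high library in pericycle. The smallest p of the mean response was that of IAA32 (adjusted p = 0.711), which had 125 reads.

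Promoters were searched on both strands, from 250 bases before to 50 after the gene start, for 2 known auxin response elements. The first, TGTCTC, was in 11 of 35 members, or 31.4%, against 14.2% of 27443 promoters. The members were IAA1, IAA5, IAA6, IAA8, IAA19, IAA20, IAA30, IAA31, IAA32, IAA34 and ARF3. The second is read with higher affinity by ARFs in vitro and was spelled TGTCGG here. It was in 6 members, or 17.1%, against 5.12% of promoters, namely IAA1, IAA5, IAA12, IAA13, IAA16 and IAA27. IAA1 and IAA5 held both elements, whereas IAA7 and IAA17 held neither in this window. Members with an element had their highest mean in different sorts, such as IAA8 and IAA31 in stele, IAA16 and IAA30 in cortex and IAA13 in pericycle. Any link between the elements and the levels was not tested.

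Other genes of the pathway also differed between cell types, again against the 59.8% of all genes. The joint test called 4 of 6 receptor genes, 4 of 5 TOPLESS co-repressors, 7 of 8 further Aux/IAA and ARF genes, 6 of 7 GH3 auxin-conjugating enzymes, 3 of 5 LBD targets, 9 of 9 auxin carriers and 6 of 7 auxin synthesis genes. Of 10 precursor loci of regulatory small RNAs, 4 of the 7 tested were called. The calls by direction are given for the 4 lists with enzymes, carriers or co-repressors, beside the shares of all genes given above for each cell type. Of the 9 carriers, 2 were higher and 2 lower in epidermis, 0 and 3 in cortex, 6 and 1 in pericycle, 7 and 1 in stele, and 1 and 4 in lateral root cap. Of the 7 GH3 genes, 5 were higher and 0 lower in epidermis, 0 and 2 in cortex, 2 and 2 in pericycle, 1 and 3 in stele, and 3 and 1 in lateral root cap. Of the 5 TOPLESS genes, 0 were higher and 3 lower in epidermis, 1 and 0 in cortex, 4 and 0 in pericycle, 1 and 1 in stele, and 0 and 2 in lateral root cap. Of the 7 synthesis genes, 3 were higher and 0 lower in epidermis, 0 and 6 in cortex, and 2 and 0 in each of pericycle, stele and lateral root cap. None of these lists had a gene called at LPi against HPi by edgeR in any cell type.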

How the data were processed

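The 30 libraries were SMART-Seq v4 cDNA libraries of RNA from sorted root cells. Per the labels the authors used CASAVA 1.4, FastQC 0.11.9, MultiQC 1.7, STAR 2.5.3a and HTSeq 1.99.2. The deposited values are raw read counts per gene, while for genome build, annotation and strand the sources used here give nothing. The 5 HTSeq summary lines, 4.99% to 12.5% of reads, were left out.

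Counts were scaled by TMM and tested with edgeR 4.0.16 in R 4.3.3 (robust quasi-likelihood F test, filterByExpr, 1 mean for each of 10 groups, Benjamini-Hochberg adjustment over 24866 genes, calls at adjusted p under 0.05). The script was tested on simulated counts with planted changes of known size. The LPi test in pericycle found 0 of 67 changes of 2 fold, 6 of 67 of 4 fold and 18 of 66 of 8 fold. The test of pericycle against the other 4 cell types found 13 of 67, 22 of 67 and 37 of 66, with 8 false calls. The members and gene lists were chosen with earlier results of these data known. Values in every library are given, in the text or in the plot of leading members, for the 12 members with the smallest joint p and for the 2 members with the smallest p at LPi in each cell type, and the rest by means or ranges. Alternatives were DESeq2 1.42.0, limma 3.58.1, other scaling and filters, a replicate block, cell types fitted alone and each library left out. Phosphate levels were also compared alone within the full fit. Fits without the 3 shallowest libraries, and without epidermis LPi and HPi replicates 3, which match more closely than any other pair, were chosen after seeing the data. Deviations of same-numbered LPi and HPi libraries correlated at 0.123 to 0.238 in epidermis and 0.111 to 0.212 in stele. In pericycle they correlated at 0.0189 to 0.0613, in lateral root cap at 0.00292 to 0.107 and in cortex at -0.202 to 0.0376. Differently numbered pairs reached 0.0589 in epidermis, 0.115 in stele, 0.0728 in lateral root cap, 0.177 in cortex and -0.00136 in pericycle. The 0.238 is that of the 2 closely matching libraries. Whether the numbers pair libraries is thus not settled. Sequences are RefSeq TAIR10.1.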

Additional observations from a re-analysis of the deposited data

How the results depend on the processing

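Over all alternatives, none of 3120 values of the 78 called cell type differences had the opposite sign. From HPi groups alone, cortex, pericycle, stele and lateral root cap each had 9 calls, against 11.4%, 20.4%, 17.7% and 23.9% of all genes. From LPi groups alone they had 9, 10, 9 and 6, against 10.3%, 21.8%, 12.4% and 21.3%. All 30 libraries stayed in the fit, and each comparison drew on the groups of 1 phosphate level. With 1 library left out the counts were 11 to 17 in epidermis (12 with all libraries), 12 to 17 in cortex (17), 14 to 17 in pericycle (15), 12 to 22 in stele (20), 10 to 15 in lateral root cap (14) and 23 to 29 for the joint test (26). The stele count fell to 12 without stele HPi replicate 2 or LPi replicate 3 and to 13 without HPi replicate 3. With the replicate block the calls were 11, 16, 14, 20 and 12 in epidermis, cortex, pericycle, stele and lateral root cap, 25 for the joint test and 0 at LPi in each cell type. At LPi, pericycle gave 1 member with RLE size factors, 3 with DESeq2 and 0 to 1 with 1 library left out, and the other responses 0 to 0. Shares of all genes called are not given here for left-out libraries, the replicate block or RLE size factors. Whether all genes moved alike in those fits is thus not shown. Of the 10 LPi changes of single members that were followed, those with the opposite sign were that of ARF2 in pericycle with limma, at -0.000797, and that of IAA7 in stele without LPi replicate 1, at -0.11 in a range of -0.11 to 2.09 over the libraries left out. Over all members tested in both fits, the LPi change had the opposite sign for up to 8 members in epidermis, 11 in cortex, 12 in pericycle, 7 in stele and 11 in lateral root cap in any 1 alternative. Depth limits IAA20, IAA29, IAA32, IAA33 and IAA34 most, with at most 604 reads each.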
